A study of Mus musculus and Homo sapiens with 9 samples.

Results

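Tetrahydrobiopterin (BH4) is a pteridine cofactor that cells make from GTP. GCH1, GTP cyclohydrolase, catalyzes the first and rate-limiting step, PTS (pyruvoyl-tetrahydropterin synthase) and SPR (sepiapterin reductase) complete the synthesis, and GCHFR is the feedback regulator that binds GCH1 and inhibits it when BH4 is abundant. The cofactor is consumed by the aromatic amino acid hydroxylases, the nitric oxide synthases and the alkylglycerol monooxygenase, and it is regenerated by the carbinolamine dehydratases PCBD1 and PCBD2 and by the dihydropteridine reductase QDPR. GCH1 is known to be induced in stimulated T cells and by interferon gamma, BH4 is known to sustain T cell proliferation, and the GCH1 pathway is one of the known defences against lipid peroxidation in ferroptosis.

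The 7 genes GCH1, GCHFR, PTS, SPR, QDPR, PCBD1 and PCBD2 were taken by symbol from the RNA-seq counts of 2 experiments in which IRF2BP2, a transcriptional coregulator, was lost. They were chosen by pathway and on the fold changes of both experiments, of which that of GCH1 in J.gamma1 cells is the largest, so that their values are a description and carry no p-value. The share of all tested genes whose groups do not overlap is not given here. A gap between the groups of one of the 7 genes is therefore part of that description. All 7 were found among the 64252 rows of the human table and among the 43432 rows of the mouse table. The human cells were J.gamma1, a derivative of the Jurkat line of T cell acute lymphoblastic leukemia (T-ALL), that carried a short hairpin RNA, either the control (sh-NC, n = 2) or one against IRF2BP2 (sh-IRF2BP2, n = 2), and the hairpin used for sequencing is not named in the sources used here. The mouse cells were CD3+ T cells isolated from spleen, from Vav-iCre+/-;Irf2bp2fl/fl knockout mice (n = 2) and from controls (n = 3), which are labelled wild type and which the study names Vav-iCre-/-;Irf2bp2fl/fl. Mice of these genotypes were killed at 6 weeks of age in the study's analysis of T cell subsets, and the labels give no age for the sequenced ones. Vav-iCre acts across the blood lineage, so the knockout T cells arose in mice whose other blood cells also lacked Irf2bp2. Nothing in the labels tells whether the libraries of a group came from separate cultures or animals, so the standard errors and p-values measure the spread between these libraries.

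Library totals lay between 16668577 and 37177523 counts, with control 3 of the mice the shallowest. IRF2BP2 fell from 204 and 199 CPM (counts scaled to the size of the library) with sh-NC to 79.0 and 93.8 CPM with sh-IRF2BP2, and Irf2bp2 had 4145, 4594 and 1915 counts in the controls and 0 in both knockout libraries, at least 1415-fold lower with the limit of 3 counts per library that a count of 0 allows. The 9 T cell markers listed here summed to between 1577 and 1872 CPM over the J.gamma1 libraries, in which the erythroid list summed to at most 1.20 CPM and the myeloid list to at most 1.58 CPM. The B cell list, mostly CD79A, was at 53.6 and 68.2 CPM with sh-NC and at 19.1 and 21.2 CPM with sh-IRF2BP2. The natural killer list, in which GZMA alone had counts, was at 26.8 and 29.0 CPM against 16.5 and 18.0 CPM. In the mouse libraries the T cell markers summed to between 3614 and 4231 CPM in controls and to 2801 and 2992 CPM in the knockout. The erythroid list there was at 591 to 2256 CPM in controls and at 4372 and 6181 CPM in the knockout. The cycling markers were at 103 to 204 CPM in the mouse controls and at 744 and 829 CPM in the knockout.

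In J.gamma1 cells GCH1 was the most changed of the 7 genes. GCH1 (ENSG00000131979) lies on the minus strand of chromosome 14 in hg38, from 54842008 to 54902826. It measured 54.7 and 55.7 CPM with sh-NC and 12.6 and 11.6 CPM with sh-IRF2BP2, from 1417, 1727, 368 and 341 counts. The groups did not overlap. The mean with sh-IRF2BP2 was 21.9% of that with sh-NC. The group means were 55.2 ± 0.66 and 12.1 ± 0.76 CPM (SD, n = 2 in either group), and the fitted log2 fold change was -2.19, with a standard error of 0.14. This change ranked 10 from the lowest among the 9755 genes with a mean of at least 10 CPM, and 74 among all 15819 genes tested.

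PTS, the enzyme after GCH1, measured 18.2 and 17.3 CPM with sh-NC and 11.7 and 9.87 CPM with sh-IRF2BP2. Both knockdown libraries lay below both controls, with a mean of 61% of the control and a log2 fold change of -0.71 (standard error 0.18). SPR, which carries out the last reduction, measured 21.6 and 18.4 CPM with sh-NC and 18.2 and 16.0 CPM with sh-IRF2BP2. Its groups were separated only by the small distance between 18.4 and 18.2 CPM, and its log2 fold change was -0.22 with a standard error of 0.17.

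GCHFR, the inhibitor of GCH1, was low, with 12 and 39 counts (0.46 and 1.26 CPM) with sh-NC and 45 and 83 counts (1.55 and 2.82 CPM) with sh-IRF2BP2. Both of its knockdown libraries lay above both controls. The log2 fold change of 1.32 had a standard error of 0.55, and leaving out sh-NC replicate 2 gave 2.22, whereas leaving out sh-NC replicate 1 gave 0.79. GCHFR overlaps the gene DNAJC17 on the opposite strand, which had 2162 counts over the 4 libraries, and the strand setting of the counting is not given in the sources used here, so reads of the 2 genes may not have been told apart.

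Of the regenerating enzymes, QDPR measured 31.9 and 30.0 CPM with sh-NC and 25.3 and 20.2 CPM with sh-IRF2BP2. Its knockdown libraries both lay below the controls, at a log2 fold change of -0.44 (standard error 0.16). The dehydratase PCBD1 measured 17.5 and 20.8 CPM against 19.1 and 16.6 CPM, and its paralog PCBD2 measured 4.09 and 5.19 CPM against 5.74 and 4.58 CPM. In both dehydratases the groups overlapped, and the log2 fold changes of -0.10 and 0.15 were smaller than their standard errors of 0.17 and 0.27. The sign changed in fits that left out 1 library, to 0.024 for PCBD1 without sh-NC replicate 2, and to -0.013 without sh-NC replicate 1 and -0.047 without sh-IRF2BP2 replicate 1 for PCBD2. PCBD1 overlaps SGPL1 on the opposite strand (11231 counts over the 4 libraries).

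**Figure D1:**
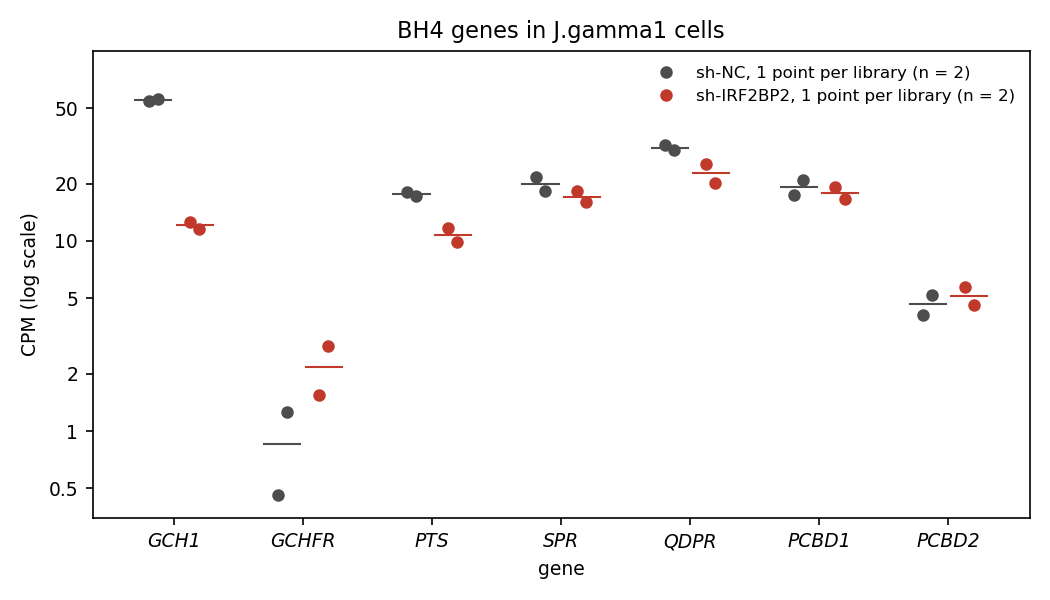
CPM of the 7 BH4 genes in the J.gamma1 libraries (vertical axis, log scale), with 1 point per library (2 with sh-NC, 2 with sh-IRF2BP2) and a line at each group's mean. GCH1 is at 54.7 and 55.7 CPM with sh-NC and at 12.6 and 11.6 CPM with sh-IRF2BP2, whereas the points of PCBD1 and PCBD2 overlap.

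Among all genes tested in J.gamma1 cells, 5.01% were significantly lower and 5.46% significantly higher after knockdown by edgeR's quasi-likelihood test, where a call needed an adjusted p (Benjamini-Hochberg) below 0.05 together with a change of 0.5 or more on the log2 scale in either direction. GCH1 and PTS belonged to the lower set and none of the 7 to the higher set, which is not evidence about the pathway because the genes were chosen with this comparison in view. Membership of PTS was lost without sh-IRF2BP2 replicate 1 (-0.87) and without sh-IRF2BP2 replicate 2 (-0.60). It was also lost when every gene with 1 count or more in some library was tested (-0.74) and with all rows (-0.71). The log2 fold change of GCH1 lay between -2.28 and -2.13 in all 11 alternatives. These alternatives refit the libraries on which the genes were chosen, so they describe the processing and give GCH1 no further support. The median log2 fold change was -0.22 over the 7 genes and 0.01 over all genes tested.

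Levels were compared per kilobase of exon, with the union of all annotated transcripts of a gene as its length. On this scale GCH1 had the highest value of the 7 genes in sh-NC cells, at 18.9 ± 0.23 CPM per kb (SD, n = 2). PCBD1 and SPR followed at 13.7 ± 1.67 and 13.7 ± 1.54 CPM per kb, a pair whose values overlapped, and then QDPR at 7.47 ± 0.31 and PTS at 5.67 ± 0.21 CPM per kb. GCHFR (0.58 ± 0.38) and PCBD2 (0.56 ± 0.093) were lowest and overlapped each other. The union is 8324 bases for PCBD2, 4144 for QDPR, 3128 for PTS, 2925 for GCH1 and 1395 for PCBD1. In the canonical transcripts the 5' UTR, coding sequence and 3' UTR have 36, 735 and 736 bases for QDPR. They have 16, 438 and 418 bases for PTS, 32, 315 and 440 bases for PCBD1, and 163, 753 and 2000 bases for GCH1. The union thus lowers the values of PCBD2, QDPR, PTS and PCBD1 more than that of GCH1. The first place of GCH1 holds for union lengths only, since by canonical lengths PCBD1, QDPR and PTS would lie above it. The order is therefore not one of transcript abundance. With sh-IRF2BP2, GCH1 was at 4.32 and 3.95 CPM per kb.

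Words of the letters GGTCTA in the transcripts are given beside these values because the share of lower genes in this comparison went with them, a pattern already known when the word was chosen. Over tested genes whose canonical transcript has a 3' UTR of 50 bases or more, 22.4% of the 205 genes with AGGTCTAA in the 3' UTR were significantly lower (median log2 fold change -0.22), 17.8% of the 897 with one of the 7-letter words AGGTCTA and GGTCTAA there (median -0.11), 8.96% of the 915 with GGTCTA alone there (median -0.02), and 3.77% of the 9078 with none of them in the 3' UTR or the coding sequence (median 0.02). With words in the coding sequence only, 9.38% of 672 genes with a 7-letter word (median -0.02) and 6.79% of 780 with GGTCTA alone (median 0.02) were significantly lower. Each gene was counted in 1 class only, by its longest word in the 3' UTR or, without one there, in the coding sequence. The lengths of the 3' UTRs were not matched between classes. Of the 7 BH4 genes, GCH1 alone holds the 8-letter word. Its 3' UTR of 2000 bases has 2 copies of GGTCTA, at positions 1117 and 1755 counted from the base after the stop codon, the second of them within AGGTCTAA, and PCBD2 has 1 copy of GGTCTA at position 1627 (capitals).
GCH1, position 1117: tcctttgtGGTCTAtgtgggtc
GCH1, position 1755: cttataaaGGTCTAatgtatcc
PCBD2, position 1627: ccatggctGGTCTAgaacttct
The transcripts of GCHFR, PTS, SPR, QDPR and PCBD1 hold GGTCTA in neither the UTRs nor the coding sequence. The sequence of the hairpin was not used here, and the part of the word in the change of GCH1 was not tested.

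In mouse CD3+ T cells Gch1 (ENSMUSG00000037580) was low and did not fall. It measured 7.99, 11.9 and 6.32 CPM in controls and 11.1 and 10.6 CPM in the knockout, from 296, 431, 101, 424 and 376 counts. The knockout libraries lay inside the range of the controls, which spread more (8.74 ± 2.88 CPM, SD, n = 3) than the knockout (10.8 ± 0.34 CPM, SD, n = 2). The log2 fold change was 0.30 with a standard error of 0.30, and it lay between 0.11 and 0.61 in the fits that left out 1 library. Cells of other types were present to different extents in these libraries. Over controls 1, 2 and 3 the summed markers were 156, 403 and 45.0 CPM for myeloid cells, 117, 220 and 26.0 CPM for B cells, 7.18, 15.0 and 6.94 CPM for platelets and 163, 204 and 103 CPM for cycling cells, each list in the same order as Gch1. The T cell markers, at 3632, 4231 and 3614 CPM, had this order too. The lists for erythroid cells (2256, 1266 and 591 CPM), plasma cells (1053, 321 and 471 CPM) and natural killer cells (49.5, 44.4 and 19.6 CPM) did not. Controls 1 and 3 were nearly equal in the platelet and T cell lists, and a shared order of 3 libraries shows little. In the knockout the summed markers were 149 and 93.9 CPM for myeloid cells, 80.4 and 24.9 CPM for B cells and 744 and 829 CPM for cycling cells. The part of these cells in the level of Gch1 was not tested. In bulk libraries fewer cells of a type and less RNA per cell cannot be told apart.

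Pts measured 41.9, 36.3 and 27.7 CPM in controls and 28.7 and 27.4 CPM in the knockout. The groups overlapped through control 3, and the log2 fold change was -0.34 (standard error 0.20). Spr measured 27.0, 31.1 and 28.6 CPM in controls and 22.2 and 20.4 CPM in the knockout, and Qdpr 52.9, 53.6 and 42.1 CPM against 40.0 and 38.9 CPM. For both genes every knockout library lay below every control, at log2 fold changes of -0.44 and -0.33 with a standard error of 0.15 each. Pcbd2 measured 10.1, 11.6 and 7.01 CPM against 8.98 and 8.45 CPM, with overlapping groups and a log2 fold change of -0.14 (standard error 0.27).

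Gchfr and Pcbd1 were near zero in these T cells and did not pass the filter on low counts. Gchfr had 0, 9 and 0 counts in controls and 5 and 8 in the knockout, and Pcbd1 had 0, 0 and 2 counts in controls and 0 and 3 in the knockout. A count of 0 allows up to 0.0845 CPM in the knockout libraries and 0.188 CPM in control 3, for counting error only, so that no difference was detectable at this depth. Of the 5 members that passed the filter, none was called in either direction by the same test, with a change of 1 or more on the log2 scale required for mouse cells, where 2.47% of all 15350 genes tested were significantly higher and 0.111% significantly lower. The median log2 fold change of the 5 was -0.33, against -0.02 over all genes tested. The T cell markers had a median of -0.43 in the same comparison, with 0 of 9 called, and the part of the T cell content in the values of Pts, Spr and Qdpr was not tested.

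**Figure D2:**
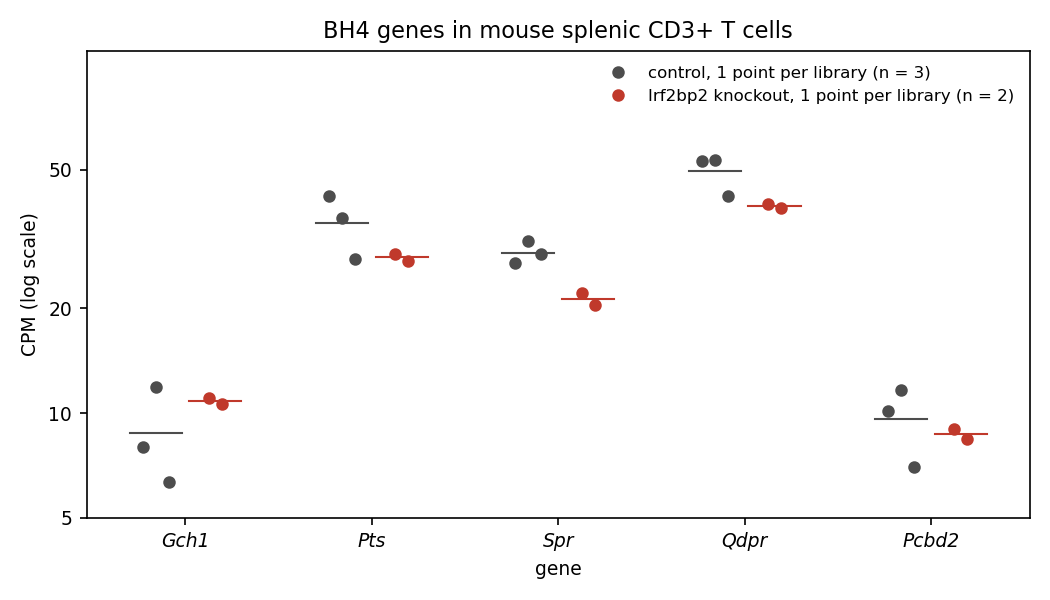
CPM of the 5 BH4 genes that passed the filter in mouse splenic CD3+ T cells (vertical axis, log scale), with 1 point per library (3 controls, 2 knockout) and a line at each group's mean. Spr and Qdpr are lower in both knockout libraries than in every control, whereas the knockout points of Gch1 lie within the range of the controls.

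The order of the levels per kilobase differed from that in J.gamma1 cells. Qdpr was highest in control T cells at 27.7 ± 3.6 CPM per kb (SD, n = 3), followed by Pcbd2 at 17.6 ± 4.33, Spr at 8.16 ± 0.58, Pts at 5.79 ± 1.18 and Gch1 at 1.40 ± 0.46 CPM per kb, with no overlap between neighbours in this order. Gchfr and Pcbd1 were last, at 0.13 ± 0.22 and 0.051 ± 0.088 CPM per kb, and overlapped. The exon lengths are again unions of all annotated transcripts. They differ between the 2 species, for example 546 bases for Pcbd2 and 8324 bases for PCBD2, so these orders are given side by side.

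**Figure D3:**
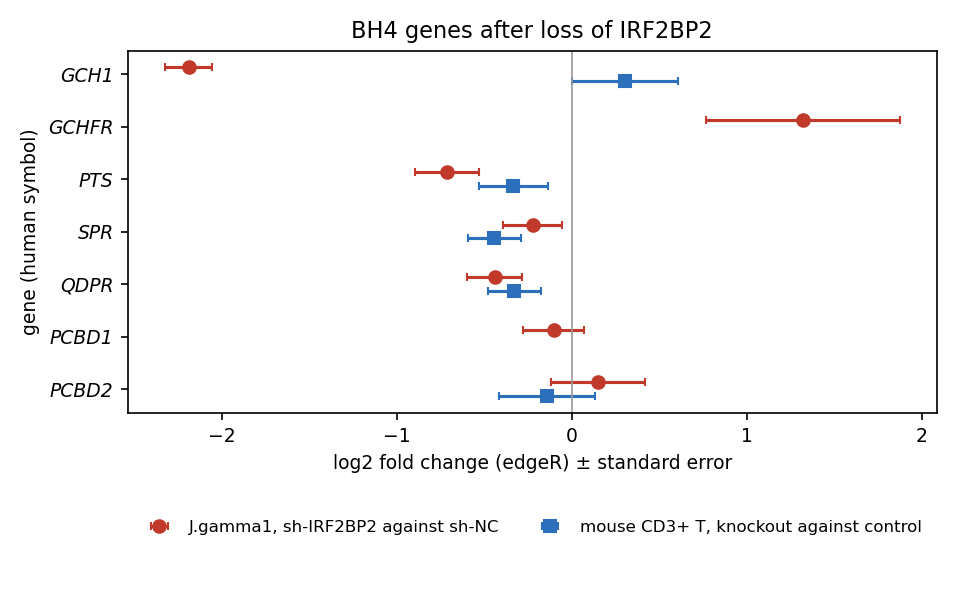
Log2 fold change after loss of IRF2BP2 (horizontal axis, edgeR, bars show 1 standard error) for the 7 BH4 genes in J.gamma1 cells (circles) and for the 5 that passed the filter in mouse CD3+ T cells (squares). GCH1 is at -2.19 in J.gamma1 cells and at 0.30 in mouse T cells, and PTS, SPR and QDPR are below 0 in both.

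The genes around the pathway were described with 6 lists, which include the enzymes that use BH4, salvage and alternative reductases, enzymes that supply GTP, the interferon gamma axis and genes of ferroptosis. In J.gamma1 cells 34 of the 44 listed genes were tested, of which 4 rose and 5 fell. Over all genes tested, 5.46% rose and 5.01% fell. The lists were chosen with earlier results of these data known, so the counts here and in mouse T cells are a description and not evidence of enrichment. The rest of this account gives p-values of the edgeR test that were adjusted over all genes tested. They make no allowance for that choice.

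The enzymes that use the cofactor were mostly at 0 in J.gamma1 cells. The hydroxylases TH and TPH2, the nitric oxide synthase NOS1 and the monooxygenase AGMO were at 0 in all 4 libraries, and NOS2 had at most 5 counts. NOS3, the endothelial nitric oxide synthase, was the most abundant, at 16.9 and 17.7 CPM with sh-NC and 16.9 and 15.2 CPM with sh-IRF2BP2 (log2 fold change -0.11, adjusted p = 0.71). TPH1, a tryptophan hydroxylase, was at 1.51 to 2.88 CPM (adjusted p = 0.36).

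Of the salvage and alternative reductases, 1 of 5 tested fell and none rose. AKR1B1, an aldo-keto reductase, measured 142 and 165 CPM against 139 and 129 CPM (adjusted p = 0.35). CBR3, a carbonyl reductase of low abundance, fell from 3.28 and 2.74 CPM to 1.10 and 0.92 CPM (log2 fold change -1.57, standard error 0.36, adjusted p = 0.032), a call that was lost without sh-NC replicate 1 (-1.44), sh-IRF2BP2 replicate 1 (-1.74) or sh-IRF2BP2 replicate 2 (-1.45). Its paralog CBR1 was listed at 0 in all 4 libraries.

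Of the enzymes that supply GTP, the substrate of GCH1, NME2, a nucleoside diphosphate kinase, fell from 179 and 190 CPM to 95.9 and 112 CPM (log2 fold change -0.83, standard error 0.13, adjusted p = 0.0082). NME2 shares sequence with its neighbour NME1 (-0.38, adjusted p = 0.094), so the split of reads between them is uncertain, and the call was lost without sh-IRF2BP2 replicate 1 (-0.74). The inosine monophosphate dehydrogenase IMPDH2 measured 235 and 269 CPM against 257 and 259 CPM (log2 fold change 0.03, adjusted p = 0.89), and GMPS, GMP synthase, 257 and 246 CPM against 227 and 199 CPM (-0.24, adjusted p = 0.26).

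In the interferon gamma axis, whose signal is known to induce GCH1, 4 of 8 tested genes rose and 1 fell. Over all genes tested, 5.46% rose and 5.01% fell. The part of this signal in the level of GCH1 was not tested. The receptor kinase JAK1 rose from 139 and 132 CPM to 206 and 206 CPM (0.61, adjusted p = 0.017), and its call was lost without either of the sh-IRF2BP2 libraries (0.58 without replicate 1, 0.60 without replicate 2). IFNG, the cytokine, had 0 counts in both controls and 13 and 12 counts with sh-IRF2BP2, at least 3.68-fold higher with a limit of 3 counts per control library (adjusted p = 0.028). The call of IFNG was lost without sh-NC replicate 2, with DESeq2 and with the filter that kept every gene with 1 count or more, and the gene was not tested without either of the sh-IRF2BP2 libraries or with the filter of 10 counts. IRF1, a transcription factor that the signal induces, was at the threshold, at 54.8 and 66.3 CPM against 88.4 and 83.1 CPM (log2 fold change 0.50, adjusted p = 0.049), and it was called in 2 of 11 alternatives. Without sh-NC replicate 1 it was at 0.37, without sh-IRF2BP2 replicate 1 at 0.43 and without sh-IRF2BP2 replicate 2 at 0.54, and none of these passed. IRF8, an interferon regulatory factor of low abundance here, fell from 3.90 and 3.74 CPM to 1.34 and 1.59 CPM (-1.38, adjusted p = 0.033), a call lost without either of the sh-IRF2BP2 libraries (-1.28 without replicate 1, -1.51 without replicate 2). The receptor chain IFNGR1 measured 32.7 and 37.2 CPM against 44.7 and 40.9 CPM (0.29, adjusted p = 0.21). None of IFNG, JAK1, IRF1 and IRF8 holds GGTCTA in its canonical transcript.

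Of the 11 genes of ferroptosis, 2 fell and none rose. TXNRD1, thioredoxin reductase, fell from 455 and 370 CPM to 242 and 201 CPM (log2 fold change -0.90, standard error 0.16, adjusted p = 0.012), and it holds GGTCTAA in its 3' UTR. Its call was lost without sh-IRF2BP2 replicate 2 (-0.77). GSS, glutathione synthetase, fell from 45.5 and 59.0 CPM to 30.4 and 36.6 CPM (-0.64, adjusted p = 0.047), and its call was lost without sh-NC replicate 2 (-0.44), without sh-IRF2BP2 replicate 1 (-0.54), with all rows (-0.64) and with every gene of 1 count or more tested (-0.67). Under that last filter the calls of CBR3 (-1.61), JAK1 (0.57), IRF1 (0.47) and IRF8 (-1.41) were lost as well. GCLM, the modifier subunit of the ligase that starts glutathione synthesis, measured 79.9 and 65.5 CPM against 55.2 and 45.0 CPM (-0.54, adjusted p = 0.063). GPX4, the glutathione peroxidase that reduces lipid peroxides, overlapped between the groups at 185 and 245 CPM against 199 and 200 CPM (adjusted p = 0.69). Besides TXNRD1, the listed genes that fell were mixed in their words. NME2 and GSS hold GGTCTA in the coding sequence alone, and CBR3 and IRF8 hold it nowhere in the canonical transcript.

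**Figure D4:**
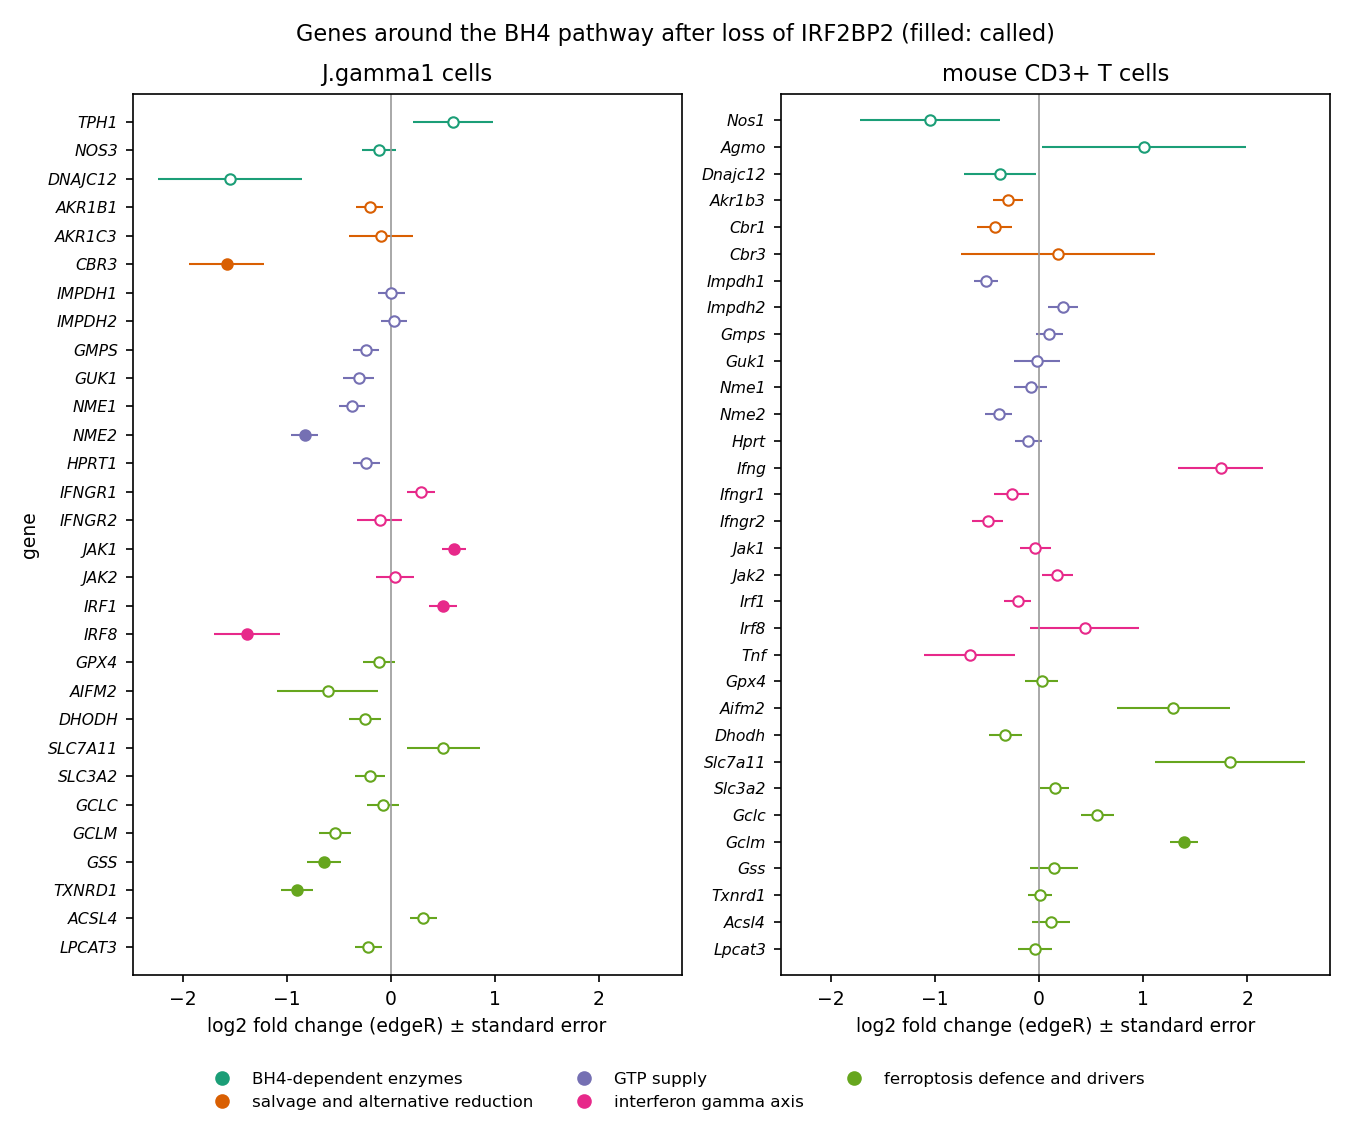
Log2 fold change (horizontal axis, edgeR, bars show 1 standard error) of tested genes named in the lists around the BH4 pathway in J.gamma1 cells (left) and mouse CD3+ T cells (right), coloured by list, with filled points for genes that were called. JAK1 is at 0.61 and TXNRD1 at -0.90 in J.gamma1 cells, Gclm at 1.40 is the filled point in mouse T cells, and IFNG is not drawn because both its controls were at 0.

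In mouse T cells 34 of the 42 listed genes were tested, of which 1 rose and none fell, where 2.47% of all genes tested rose and 0.111% fell. By edgeR 2488 of the 15350 genes had an unadjusted p under 0.05. Gclm rose from 31.0, 35.6 and 29.1 CPM in controls to 83.3 and 85.1 CPM in the knockout, by 1.40 on the log2 scale (standard error 0.13, adjusted p = 0.0089). The log2 fold change was 1.33 to 1.5 in the fits that left out 1 library, and the call was lost without control 1 (1.38), without knockout 1 (1.39) and without knockout 2 (1.36). The erythroid and cycling markers were higher in the knockout libraries as well, and the part of such cells in the rise of Gclm was not tested. Ifng measured 2.75, 2.13 and 4.75 CPM against 8.20 and 13.1 CPM (1.75, adjusted p = 0.086).

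The receptor side of the interferon gamma axis was not called in mouse T cells. Jak1 measured 974 to 1211 CPM in controls and 1130 and 1025 CPM after knockout (a log2 fold change of -0.04, adjusted p = 0.94). Of the enzymes that use BH4, Th, Tph1, Tph2 and Nos2 were at 0 in all 5 libraries, and Dnajc12, a cochaperone of the hydroxylases, was at 1.97 to 3.65 CPM (adjusted p = 0.68). Akr1b3, an aldo-keto reductase, measured 131 to 164 CPM in controls and 126 and 122 CPM in the knockout (-0.30, adjusted p = 0.38). Nme2 measured 158 to 183 CPM in controls and 133 and 128 CPM in the knockout (-0.39, adjusted p = 0.2), and Impdh2 91.6 to 116 CPM against 121 and 127 CPM (0.23, adjusted p = 0.5). Impdh1 measured 120 to 126 CPM against 83.3 and 88.2 CPM (-0.51, adjusted p = 0.079).

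The neighbours of GCH1 on chromosome 14 were described as well. Of the 12 protein-coding genes within 500 kb, 11 were tested. Of these 1 rose, 1 fell and 9 were not called, where 5.46% of all genes tested rose and 5.01% fell. The difference from these shares was not tested. The nearest, WDHD1, 36.1 kb away, measured 122 CPM with sh-NC and 105 CPM with sh-IRF2BP2 in the mean (log2 fold change -0.21, adjusted p = 0.28), and SAMD4A, at -48.7 kb on the side of lower coordinates, was at 0.34 CPM with sh-NC (adjusted p = 0.78). DLGAP5, a spindle protein 245 kb away, fell (-0.57, adjusted p = 0.034), and ATG14, an autophagy protein 464 kb away, rose (1.00, adjusted p = 0.0039).

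**Figure D5:**
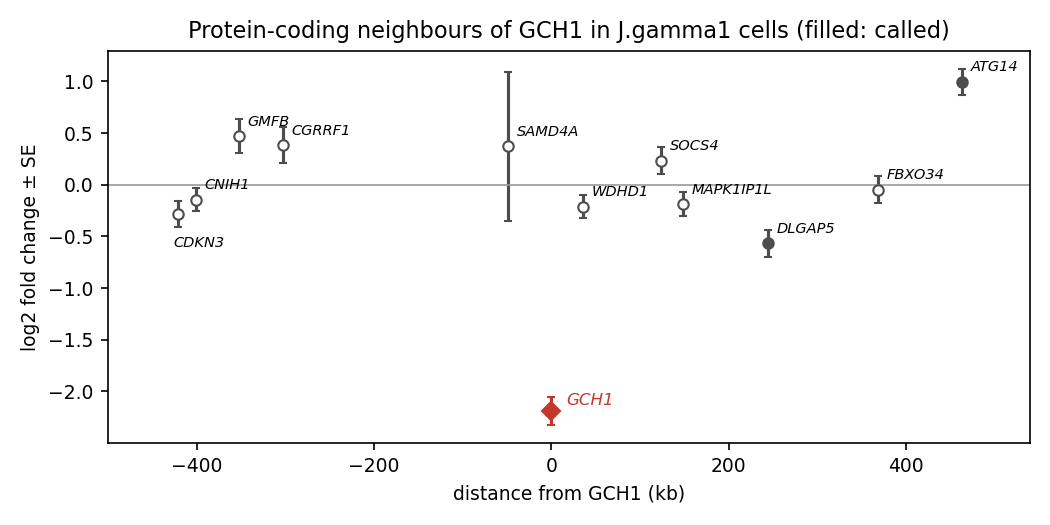
Log2 fold change (vertical axis, edgeR, bars show 1 standard error) in J.gamma1 cells of the 11 tested protein-coding genes within 500 kb of GCH1, against their distance from GCH1 in kb (horizontal axis), with filled points for genes that were called. GCH1 (diamond) is at -2.19, and its neighbours lie between -0.57 and 1.00.

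The genes whose pattern over the 4 J.gamma1 libraries was most like that of GCH1 were PTBP3, an RNA-binding protein, RAG2, a subunit of the V(D)J recombinase, COPA, a coatomer subunit, CD79A, a signalling chain of the B cell receptor, and ALDH1A2, a retinaldehyde dehydrogenase. Likeness was the Euclidean distance between log2 CPM values relative to the control mean, which was 0.304 for PTBP3 and at most 0.444 for the 5 genes, among 9416 protein-coding candidates with a mean of at least 10 CPM. RAG2 had a mean of 16.9 CPM with sh-NC and 4.20 CPM with sh-IRF2BP2, and CD79A of 53.1 and 12.6 CPM. COPA holds AGGTCTAA in its 3' UTR and PTBP3 holds AGGTCTA in its 3' UTR and coding sequence, ALDH1A2 holds GGTCTA in its coding sequence, and RAG2 and CD79A hold none of these words. In mouse T cells the 5 genes nearest to Gch1 over 5 libraries were Litaf, Crem, Gadd45b, Mrps22 and Txnl1, at distances of 0.0637 to 0.173 among 8649 candidates, and none of them was called.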

How the data were processed

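RNA-seq counts of 4 J.gamma1 libraries and of 5 libraries of mouse splenic CD3+ T cells were used. Per the study's methods and processing notes, the authors aligned paired-end reads with HISAT2 2.2.0 to hg38 (human) and mm10 (mouse) and estimated abundance with StringTie. The deposited counts are whole numbers for each Ensembl gene, not normalized, and the step from coverage to counts and the strand setting are not given in the sources used here. Groups were taken from the labels, and all columns were matched to a sample.

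Rows were restricted to genes of GENCODE 44 or M21 (56105 of 64252 human and 42462 of 43432 mouse rows), filtered on low counts (filterByExpr) and normalized by TMM. The test was edgeR 4.0.16's quasi-likelihood F-test (glmQLFit, then glmQLFTest, in R 4.3.3), run per table with the condition as the sole term. P-values were adjusted by Benjamini-Hochberg over all genes tested. CPM refers to TMM-scaled library sizes. The biological coefficient of variation was 0.165 (J.gamma1) and 0.271 (mouse), with 2 and 3 residual degrees of freedom. A count of 0 was given a limit of 3 counts per library, which is 0.0783 to 0.188 CPM and covers counting error only.

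The members, the gene lists and the words searched in transcripts were chosen with earlier results of these data known. Named genes were the 7 members, every called gene of the 6 lists around the pathway and otherwise up to 2 genes per list with the highest mean CPM, the protein-coding genes within 500 kb of GCH1 and the 5 most alike genes. Others (NOS2, CBR1, NME1, GCLM, the genes at 0, Ifng and Impdh1) were named after their values were seen. Some items that these rules cover are not reported here. Words were scanned in Python 3.11.15 in the canonical GENCODE transcripts, and protein sequences were not used here. As alternatives, DESeq2 1.42.0, upper-quartile and RLE scaling, filters of 1 count or more in some library or 10 or more in every library, all rows, no fold threshold, the replicate number as a block and the omission of each library were run, where a lone library was assumed to vary like the other group. The scripts were tested on simulated data.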

Additional observations from a re-analysis of the deposited data

Results flagged for a closer look

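Genes whose libraries moved in opposite directions in the 2 tables, with no overlap between groups in either and a call in at least 1, are listed here. The difference between the tables was not tested. IRF1 had a log2 fold change of 0.50 in J.gamma1 cells, where it was called in 2 of 11 alternatives. Irf1 was at -0.20 in mouse T cells and was not called (edgeR, adjusted p = 0.52). GCLM had a log2 fold change of -0.54 in J.gamma1 cells, where it was not called (edgeR, adjusted p = 0.063), and Gclm of 1.40 in mouse T cells. The erythroid and cycling markers were also higher in the knockout libraries, and the part of such cells in the value of Gclm was not tested. No group had the 4 libraries that a check for a single library far from the rest needs, and none of the 7 BH4 genes moved without overlap in opposite directions in both tables.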

How the results depend on the processing

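GCH1 in J.gamma1 cells remained lower in all 11 alternatives, with a log2 fold change of -2.28 to -2.13 over the fits that left out 1 library. The gene was chosen on its fold change in these same libraries, so this range describes the processing only. Gch1 in mouse T cells was called in none of 12. SPR (-0.35 to -0.11) and QDPR (-0.64 to -0.29) were called in none of 11. In J.gamma1 cells testing every gene with 1 count or more in some library gave 319 genes higher, 396 lower and 3 pathway genes, against 864, 793 and 9, and the cause was not tested. Leaving out 1 library gave 418 to 1608 higher, 419 to 1143 lower and 2 to 8 pathway genes. In mouse T cells, where 379 genes were higher, 17 lower and 1 pathway gene was called, DESeq2 gave 733, 64 and 3. The pathway count was 2 under this filter, with 10 counts or more in every library, and with the replicate block. Leaving out 1 library gave 6 to 532 higher, 1 to 35 lower and 0 to 2 pathway genes.

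With the replicate block, the log2 fold change of GCH1 was -2.19 and 1293 genes were higher and 1174 lower in J.gamma1 cells, with GCHFR then called (1.40). In mouse T cells the replicate block gave 407 higher, 35 lower and 2 pathway genes. The libraries share only a number: the deviations of same-numbered libraries correlated at 0.264 in J.gamma1 cells and at -0.0018 in mouse T cells, over 2 pairs each. Upper-quartile scaling moved the share of lower calls in J.gamma1 cells from 47.9% to 56.7%. Low counts limit GCHFR, Gchfr and Pcbd1.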
